A study of Mus musculus with 36 samples.

Results

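The genes described are 8 that mark classes of inhibitory interneurons in the hippocampus. Of these, 7 encode peptide precursors: Npy (neuropeptide Y), Sst (somatostatin), Cort (cortistatin), Vip (vasoactive intestinal peptide), Cck (cholecystokinin), Crh (corticotropin-releasing hormone) and Pdyn (prodynorphin). The last, Nos1, encodes neuronal nitric oxide synthase, an enzyme and not a peptide. They were taken by name, with earlier results of these data known, as 8 of the 50559 gene symbols in a table of hippocampal RNA-seq read counts. All 8 passed a filter on low counts that left 25382 genes to test.

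Interneurons release GABA, and many also store peptides that are cut from a precursor, packed in dense-core vesicles and released during strong firing to act on G-protein-coupled receptors. Somatostatin and neuropeptide Y are found in interneurons that target the dendrites of pyramidal cells and dampen excitation, Vip in interneurons that mostly inhibit other interneurons, and Cck in basket cells around the pyramidal cell body. Several of the transcripts are not confined to interneurons: Cck is also made by pyramidal cells, and prodynorphin in the hippocampus is best known from dentate granule cells.

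The libraries came from the hippocampi of 6-month-old female mice on a C57BL/6 background. All groups, the wild-type (WT) controls included, carried PV_Cre, which drives Cre recombinase in parvalbumin neurons, and RiboTag+/-, an epitope tag on ribosomes that Cre turns on. The sequenced RNA was the input fraction, taken from the whole tissue lysate, so it is bulk hippocampus and not the tagged parvalbumin cells. APP mice carried a human amyloid precursor protein transgene with the Swedish and Indiana mutations (Sw,Ind, J9 line), Tau mice the human tau P301S transgene (PS19 line), and APP/Tau mice both, all from heterozygous parents. These lines are known to drive their transgenes from the PDGF-B and the mouse prion (Prnp) promoter, in neurons of many kinds, so neither is directed at interneurons. Mice of each genotype were either naive, which were handled and then stayed in the home cage, or trained to find the hidden platform of the Morris water maze for 5 days with 6 trials a day. Trained mice had a probe test 24 h after the last trial, and tissue was taken 2 h later. There were 6 naive and 5 trained WT, 5 and 3 APP, 4 and 4 Tau, and 6 and 3 APP/Tau libraries. The labels number the libraries within a group but do not say that each is a separate mouse, so the p-values measure the spread between these libraries.

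The 36 libraries held 69150326 to 124787108 counts, with a median of 85443068. Interneuron identity genes such as Gad1, Gad2 and Lhx6 were all measured (27 of 27 listed genes tested), with a summed level of 1469 to 1914 CPM (counts-per-million), and the markers of dentate, CA1 and CA3 neurons were tested in full as well. Prnp, which the Tau transgene carries sequence of, was at 1423 to 2142 CPM in 16 of the 17 libraries labelled Tau and at 728 to 879 CPM in the 19 others. The remaining one, the library labelled Tau trained replicate 4, had 846 CPM. For the main single-gene differences that use it, values without it are also given. WT trained replicate 4 also stood apart: each of the 12 striatal markers was higher in it than in any of the other 35 libraries, for example Drd1 at 24.9 CPM against at most 7.91 CPM. Markers of choroid plexus, a tissue that borders the hippocampus, ran from a summed 195 to 6830 CPM across libraries, with wide spread inside each group. They differed between groups as well, with 2293 to 5926 CPM in naive and 301 to 1044 CPM in trained Tau libraries. The median score (mean centred log2 CPM of the markers) was -1.89 in naive WT, 1.70 in naive APP, 1.31 in naive Tau and 0.03 in naive APP/Tau libraries. Comparisons between these groups thus also compare unlike choroid content.

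Counted per length of all annotated exons of a gene together, Sst was the most abundant of the 8 in naive WT mice, at 240 ± 28.7 CPM per kilobase (SD, n = 6). Cck followed at 161 ± 14.9 and Npy at 51.4 ± 7.61 CPM per kilobase on the same scale. The ranges of these 3 genes over the 6 libraries did not touch one another. Nos1 stood at 11.2 ± 1.51, Cort at 6.90 ± 1.05, Vip at 5.35 ± 0.527 and Pdyn at 4.43 ± 0.746 CPM per kilobase. Crh was lowest at 1.82 ± 0.364 CPM per kilobase. Nos1 overlaps 2 predicted genes, Gm37028 on its own strand and Gm26995 on the other, and its value may include their reads. Read depth was ample for Npy and Sst, whose lowest counts in any library were 1238 and 8796 reads. Counts were lowest for Cort and Crh, which came down to 124 and 59.

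Among the members whose levels moved together across libraries, Sst, Vip, Cck and Npy are shown here with the stretches just before their transcription starts. Pdyn, which also moved with Npy, is not shown. The stretches are given because cAMP-responsive transcription through CREB was worked out on the Sst promoter. A promoter was found in RefSeq (build GRCm38.p6, which is not the mm39 build of the counts) for 7 of the 8 genes (Pdyn has 2), as a window of 250 bases before to 50 bases after the start. Both strands were searched for the cAMP response element TGACGTCA and for its shorter cores TGACG and CGTCA, which the full element contains. The 100 bases before each start follow, 5′ to 3′ on the gene's strand, with the motif in capitals, for Sst at chr16:23890845-23890944 (minus strand), Vip at chr10:5639118-5639217 (plus), Cck at chr9:121495695-121495794 (minus) and Npy at chr6:49822610-49822709 (plus).
Sst: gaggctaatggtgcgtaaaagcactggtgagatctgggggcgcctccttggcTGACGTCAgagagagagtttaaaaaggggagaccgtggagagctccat
Vip: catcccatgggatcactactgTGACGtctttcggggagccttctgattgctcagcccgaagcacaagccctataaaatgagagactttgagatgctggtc
Cck: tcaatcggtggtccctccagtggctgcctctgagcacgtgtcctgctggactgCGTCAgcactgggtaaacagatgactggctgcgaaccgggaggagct
Npy: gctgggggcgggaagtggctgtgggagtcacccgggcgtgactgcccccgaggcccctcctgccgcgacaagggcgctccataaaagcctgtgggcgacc

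The full element occurred in Sst alone among the 7, 48 bases before the start, and in 1.79% of the 32851 promoters of that table. A core motif occurred in 5 of the 7 genes: Sst, Vip (79 bases before the start), Cck (47), Cort (18) and Nos1 (130). The core motif is common, with 20.8% of all promoters holding one. The window of Npy and both windows listed for Pdyn held neither, which says only that these letters are not in those windows. Cort and Nos1 held a core motif, though no correlation of theirs with another member passed. Whether the motifs bear on the shared movement of members was not tested.

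The spread of the 8 group means differed by gene. The highest group mean was 1.18 times the lowest for Vip, 1.27 times for Cck, 1.29 times for Sst, 1.42 times for Nos1, 1.47 times for Npy, 1.57 times for Pdyn, 1.83 times for Cort and 2.11 times for Crh. When the groups were ranked by mean for each gene, 55 of the 56 differences between neighbours in the rank were within the larger of the 2 groups' SDs. The exception was Cort between naive and trained WT mice. Ranking itself puts close means side by side, so this count says nothing of groups farther apart in the rank. Naive WT mice had the highest mean of all groups for Npy, Sst, Cort and Crh.

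**Figure D1:**
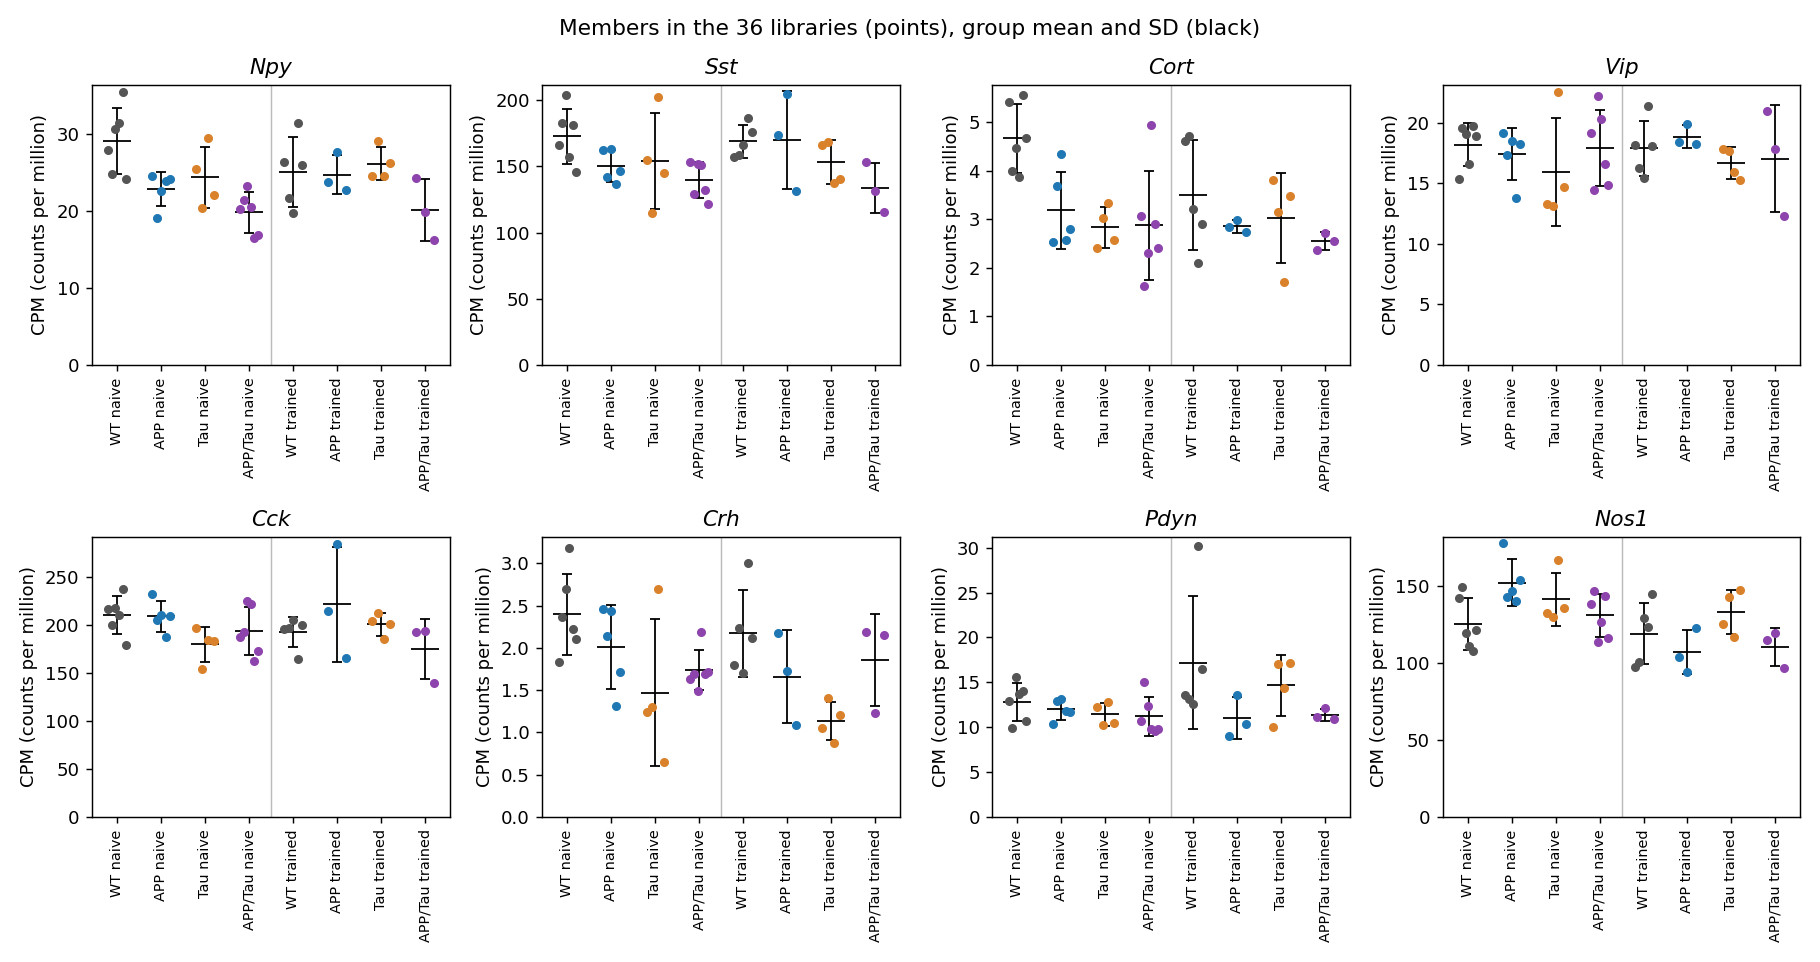
CPM (vertical axes, starting at 0) of the 8 genes in each of the 36 libraries (points), by genotype and training (horizontal axes), with the group mean and SD in black. Naive WT libraries hold the highest Npy mean (29.1 CPM), and 1 WT trained library stands at 30.2 CPM for Pdyn.

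Neuropeptide Y was the only one of the 8 genes whose level differed between genotypes after adjustment over all genes tested, and it did so in a single comparison, APP/Tau against WT in naive mice. Npy was at 24.1 to 35.4 CPM in the 6 naive WT libraries, with a median of 29.3 CPM. In the 6 naive APP/Tau libraries it was at 16.5 to 23.2 CPM, with a median of 20.4 CPM. Every naive APP/Tau library was below every naive WT library. Npy fell by 0.55 on the log2 scale (SE 0.113, 95% interval -0.78 to -0.32), a level 0.681 times that of WT (edgeR, adjusted p 0.0367). Of all genes tested, 0.067% passed in this comparison, and 0.134% were lower in APP/Tau with no overlap of the groups.

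The size of this difference moved little with the processing and its adjusted p moved across the threshold. Leaving out 1 library at a time gave log2 changes from -0.61 to -0.49 and adjusted p-values from 0.0193 to 0.212, and the call was lost in 9 of the 12 cases. It held without WT naive replicate 2 or 6 or APP/Tau naive replicate 3. The highest adjusted p, 0.212, came without WT naive replicate 5, the library with the most Npy. DESeq2 gave an adjusted p of 0.0027, and a fit to the 12 libraries of the comparison alone gave 0.205. With the choroid plexus score as a covariate the log2 change was -0.56, and with the striatal score it was -0.53.

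**Figure D2:**
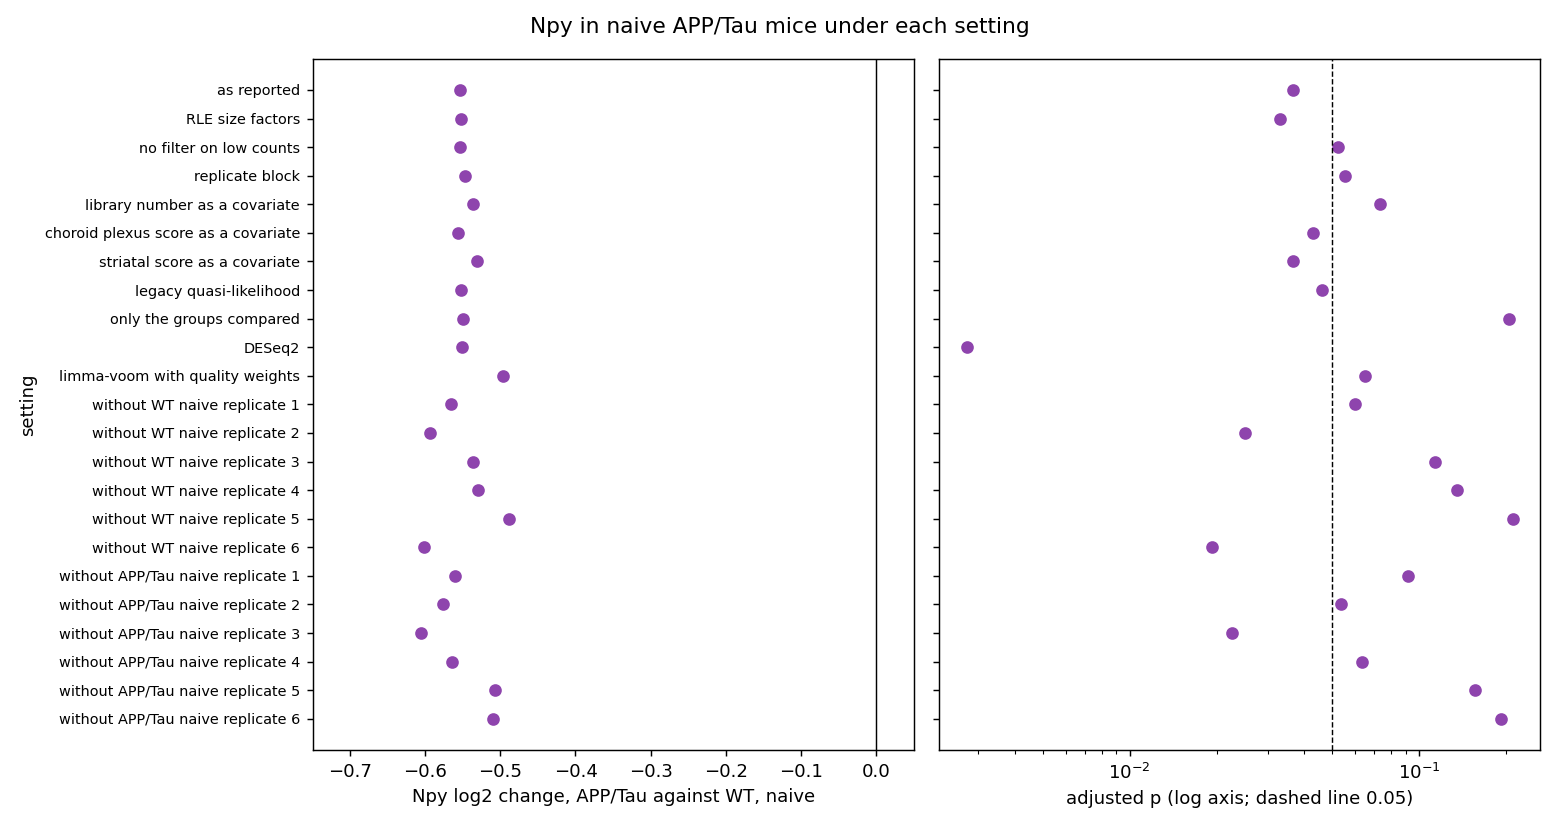
Log2 change of Npy (left, horizontal axis) and its adjusted p (right, log axis, dashed line at 0.05) in naive APP/Tau against naive WT mice, as reported and under each alternative setting (vertical axis). The log2 change stays between -0.61 and -0.49, while the adjusted p lies on both sides of the line.

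In the single transgenics Npy took intermediate values. Naive APP libraries had 24.6, 19.1, 22.6, 23.9 and 24.1 CPM, and naive Tau libraries 25.5, 20.4, 29.5 and 22.1 CPM. Both groups overlapped with WT. The log2 difference from WT was -0.35 ± 0.118 (SE) for APP, with an adjusted p of 1.0, and -0.26 ± 0.126 for Tau, with an adjusted p of 0.536. Neither passed. APP/Tau against Tau gave -0.30 ± 0.126 (adjusted p 0.72), and -0.19 without Tau naive replicate 3. All 3 naive genotype comparisons against WT share the same 6 control libraries, so they are not independent of one another. A test of whether the double transgenic departs from the sum of both single changes found no member past the threshold in naive mice, where 0% of genes passed by edgeR. Only Nos1 had an unadjusted p under 0.05 there (-0.39 ± 0.151), beside 7.13% of all genes. In trained mice 0.0118% of genes passed, and Cck (-0.40 ± 0.181) and Crh (1.14 ± 0.428) were the members with an unadjusted p under 0.05, beside 9.39% of all genes. The Cck value was -0.18 without APP trained replicate 2 and -0.26 without APP/Tau trained replicate 3, and leaving out the library labelled Tau trained replicate 4 gave -0.40 for Cck and 1.16 for Crh.

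In trained mice no Npy difference passed. Trained WT libraries had 26.3, 21.7, 19.8, 31.5 and 26 CPM, and trained APP/Tau libraries 24.4, 19.9 and 16.3 CPM. The groups overlapped, and the log2 difference was -0.31 ± 0.145 with an adjusted p of 0.462. Without WT trained replicate 4, the library with the highest Npy of its group, it was -0.22, and without APP/Tau trained replicate 3 it was -0.18. Trained Tau libraries, at 24.6, 29.1, 24.5 and 26.2 CPM, were all above the 3 trained APP/Tau libraries, with a log2 difference of APP/Tau from Tau of -0.37 ± 0.151 and an adjusted p of 0.23. It was -0.38 without the library labelled Tau trained replicate 4 and -0.24 without APP/Tau trained replicate 3. In that comparison 8.36% of all genes were lower without overlap. Whether the APP/Tau difference itself depends on training was tested as an interaction, in which no member had an unadjusted p under 0.05, beside 4.14% of all genes.

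Averaged over 4 group differences, APP carriers had a log2 Npy level 0.26 below non-carriers, written as a change of -0.26 ± 0.0677 (adjusted p 0.173 by edgeR and 0.0475 by DESeq2). For Tau carriers the averaged change was -0.17 ± 0.0675 with an adjusted p of 0.235. Other members with an unadjusted p under 0.05 in these averages were Sst (-0.13), Cort (-0.26) and Pdyn (-0.29, or -0.21 without WT trained replicate 4) for APP carriers and Sst (-0.19) and Cort (-0.30), with the Crh and Cck given further on, for Tau carriers. Leaving out the library labelled Tau trained replicate 4 gave Tau-carrier values of -0.17 for Npy, -0.18 for Sst, -0.32 for Cort and -0.43 for Crh. An unadjusted p under 0.05 was reached by 9.95% of all genes for APP and 13.2% for Tau carriers. In bulk tissue, fewer cells of a type and less RNA per cell cannot be told apart, here or for any gene that follows.

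Somatostatin, released by dendrite-targeting interneurons, differed by less than the threshold asks in every comparison (of all genes, 0.0276% passed in naive and 0.00394% in trained APP/Tau against APP, and 0.0394% in naive APP/Tau against Tau). Naive WT libraries ran from 146 to 204 CPM with a median of 174, and naive APP/Tau libraries from 122 to 153 CPM with a median of 141. The groups overlapped, and the log2 difference of -0.31 ± 0.107 had an adjusted p of 0.611. Among trained mice, WT libraries had 157, 159, 166, 187 and 176 CPM and APP/Tau libraries 154, 131 and 116 CPM. Those groups did not overlap in Sst, in a comparison where 2.31% of all genes were lower without overlap, and the log2 difference was -0.34 ± 0.136 with an adjusted p of 0.377. Trained APP libraries spread from 131 to 205 CPM, across nearly the whole range of Sst in the study.

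Cortistatin is a relative of somatostatin that binds the same receptors. Naive WT libraries had 3.87 to 5.57 CPM of Cort with a median of 4.57. Naive Tau libraries had 2.41, 3.02, 3.34 and 2.57 CPM, and all 4 were below every naive WT library, as were 0.792% of all genes. The log2 difference was -0.72 ± 0.226, and its adjusted p of 0.411 did not pass. Naive APP libraries had 2.54, 3.68, 4.34, 2.58 and 2.80 CPM and overlapped with WT (-0.54 ± 0.207, adjusted p 1.0). Naive APP/Tau libraries ran from 1.63 to 4.94 CPM with a median of 2.65, at a log2 difference of -0.68 ± 0.197 and an adjusted p of 0.537. The highest of them, replicate 4 at 4.94 CPM, lay inside the WT range, and without it the log2 difference was -0.92 with an adjusted p of 0.038. In trained mice Cort had overlapping ranges in every genotype against WT, with trained WT libraries at 4.61, 4.71, 3.21, 2.10 and 2.90 CPM.

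Across the 3 naive comparisons against WT, 7 of the 8 genes had a log2 difference below 0 in each, and Nos1 was the one above 0. The members' median was -0.15 in APP, -0.21 in Tau and -0.25 in APP/Tau, beside medians over all genes of -0.01, 0.00 and 0.00. The share of all genes below 0 was 52.9%, 50.2% and 49.6%. An unadjusted p under 0.05 was reached by 3, 3 and 4 of the 8, beside 3.68%, 9.31% and 7.48% of all genes. The members were chosen with earlier results of these data known, so a share above that of all genes may in part restate the choice. Several members also move together across libraries, so these counts and those for trained mice that follow are not of separate observations. Against trained WT mice, whose 5 libraries are likewise shared by the 3 comparisons, 5 of the 8 were below 0 in APP, 5 in Tau and 8 in APP/Tau, beside 47.7%, 50% and 52% of all genes, with medians of -0.09, -0.12 and -0.27, and 1, 1 and 3 had an unadjusted p under 0.05, beside 5.84%, 15.2% and 10.2% of all genes. Apart from Npy in naive APP/Tau mice, no member passed the adjusted threshold, and the percentages of all genes that passed were 0.0355% in naive APP, 0.0276% in naive Tau, 0.0276% in trained APP, 0.303% in trained Tau and 0.0552% in trained APP/Tau.

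**Figure D3:**
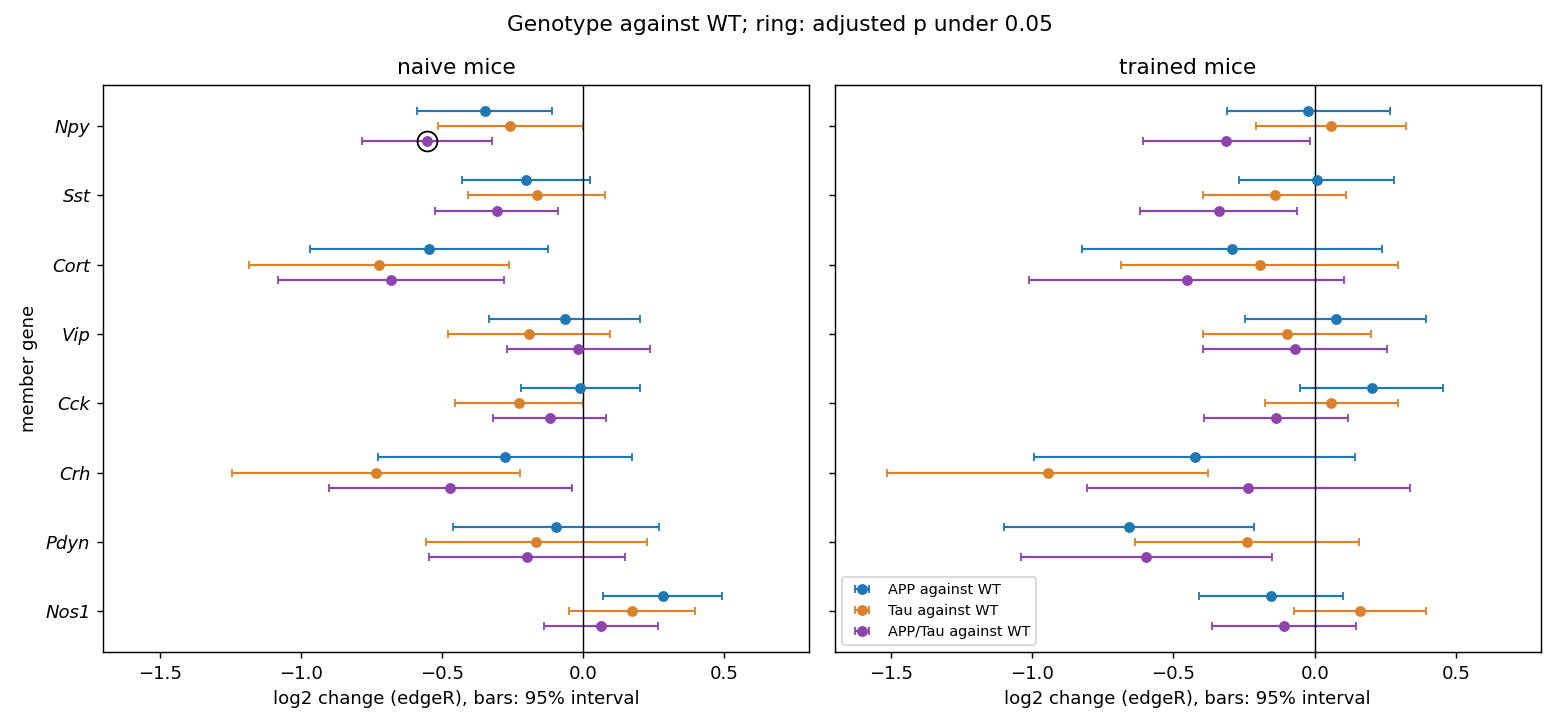
Log2 change against WT (horizontal axes) of the 8 genes (vertical axis) in naive (left) and trained (right) mice, for APP, Tau and APP/Tau; bars are 95% intervals. The ring marks Npy in naive APP/Tau mice, at -0.55, the only change with an adjusted p under 0.05.

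Corticotropin-releasing hormone, a stress peptide that hippocampal interneurons also make, was the scarcest member and had the largest difference from WT by size among the 6 comparisons. Trained WT libraries had 1.80, 2.24, 1.70, 3.00 and 2.12 CPM of Crh and trained Tau libraries 1.05, 1.41, 0.878 and 1.21 CPM. All 4 trained Tau libraries were below every trained WT library, as were 4.04% of all genes. The log2 difference was -0.95 ± 0.28, a level 0.519 times that of WT, and the adjusted p of 0.101 did not pass in edgeR. DESeq2 put it at 0.031 and limma-voom with quality weights at 0.038. The log2 difference was -0.97 when the library labelled Tau trained replicate 4 was left out, and without WT trained replicate 4 it was -0.80.

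Naive Tau libraries had 1.24, 1.30, 2.69 and 0.647 CPM of Crh, with replicate 3 inside the WT range of 1.83 to 3.19 CPM and the other three below it. The log2 difference was -0.73 ± 0.251 (adjusted p 0.412). It was -1.19 without replicate 3 and -0.48 without replicate 4. Naive APP/Tau libraries had a median of 1.70 CPM and a log2 difference from WT of -0.47 ± 0.212 (adjusted p 0.651). Trained APP/Tau libraries, at 2.19, 1.23 and 2.15 CPM, differed from trained Tau by 0.71 ± 0.324 (adjusted p 0.283), and by 0.73 without the library labelled Tau trained replicate 4. Tau carriers averaged against non-carriers differed by -0.42 ± 0.137 with an adjusted p of 0.136, and without Tau naive replicate 3 that adjusted p was 0.0187 for Crh and 0.0362 for Sst. Of all genes, 0.835% passed in the comparison of Tau carriers and 0.0985% in that of APP carriers.

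The receptors and the binding protein of the member peptides were described from a list of 16 genes, all tested. Crhr1, the main receptor for Crh, fell in trained Tau mice: the libraries had 11.5, 10.8, 11.1 and 10.5 CPM against 15.8, 15.4, 16.8, 21.4 and 12.1 CPM in trained WT mice. The groups did not overlap, as for the 4.04% of all genes lower without overlap there, and the log2 change was -0.56 ± 0.128 with an adjusted p of 0.0457. The Crhr1 call was lost in 8 of the 9 fits that each left out a library. Without WT trained replicate 4, which had the most Crhr1, the change was -0.44 with an adjusted p of 0.123, and leaving out the library labelled Tau trained replicate 4 gave -0.54 with one of 0.101. All 12 striatal markers were below 0 in this comparison, with a median of -0.97, and with the striatal score as a covariate Crhr1 had a change of -0.47 and an adjusted p of 0.0813. The striatal score was 2.39 in WT trained replicate 4, beside medians of -0.25 in trained WT and -0.41 in trained Tau libraries. Marker difference and covariate thus both lean on that library. Crhr1 was the only one of the 16 to pass in that comparison, where the list's median was -0.09 and 4 genes had an unadjusted p under 0.05 and were lower, beside 8.6% of all genes.

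Crhbp encodes a secreted protein that binds Crh and keeps it from its receptors. Averaged over the group differences, it fell in Tau carriers by 0.31 on the log2 scale (SE 0.074, adjusted p 0.0338), and the call was lost in 14 of 36 fits that left out a library. The Crhbp value was -0.31 (adjusted p 0.0365) without the library labelled Tau trained replicate 4. The call was also lost with the replicate number as a block (adjusted p 0.0556) and with no filter on low counts (0.0605). Naive WT libraries ran from 23.8 to 36.1 CPM of Crhbp and naive APP/Tau libraries from 14.8 to 22.3 CPM, without overlap, as for 0.134% of all genes lower there. That difference was -0.53 on the log2 scale with an adjusted p of 0.17. Trained Tau libraries, at 26.8, 24.8, 19.5 and 25 CPM, overlapped with trained WT libraries, which ran from 20.05 to 25.5 CPM. The 4 group differences behind the Crhbp average were -0.50 and 0.00 for Tau against WT and -0.16 and -0.58 for APP/Tau against APP, naive and trained in turn.

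Among the receptors of neuropeptide Y, 1 passed, in trained APP/Tau against trained Tau mice. Npy1r, a receptor for Npy on pyramidal and granule cells, was at 28.6, 28.6 and 24.8 CPM in trained APP/Tau and 37.4, 38.0, 33.9 and 36.1 CPM in trained Tau libraries. Of all genes, 0.481% passed there. Npy1r fell by 0.41 on the log2 scale (SE 0.099, edgeR adjusted p 0.0471), with no overlap of the groups, as for the 8.36% of all genes lower without overlap there. The Npy1r call was lost in each of the 7 fits that left out a library, with an adjusted p of 0.0905 without the library labelled Tau trained replicate 4. Npy2r, the presynaptic receptor, had a log2 difference of -0.66 with an adjusted p of 0.0699. Choroid plexus markers moved with this comparison, 15 of 15 above 0 with a median log2 difference of 2.71 and a summed level of 308 to 3866 CPM in trained APP/Tau and 301 to 1044 CPM in trained Tau libraries. With the choroid score as a covariate, Npy1r had a log2 change of -0.35 and an adjusted p of 0.119. Against naive WT, Npy1r in naive APP/Tau mice had a log2 difference of -0.27 (adjusted p 0.478) and Npy5r one of -0.29 (adjusted p 0.478).

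Prodynorphin gives rise to dynorphins, ligands of the kappa opioid receptor. Its values in trained WT mice turned on a single library. Trained WT libraries had 13.5, 13.1, 12.6, 30.2 and 16.4 CPM of Pdyn, and replicate 4, at 30.2 CPM, was the highest of all 36. This is the library in which all 12 striatal markers were highest, and Pdyn is strongly expressed in the striatum. Whether striatal tissue accounts for its Pdyn level was not tested. Naive WT libraries ran from 9.91 to 15.6 CPM.

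The log2 difference of trained from naive WT mice was 0.42 ± 0.175 for Pdyn with replicate 4 (adjusted p 0.845) and 0.12 without it. Trained APP libraries, at 8.99, 13.6 and 10.4 CPM, differed from trained WT by -0.66 ± 0.217 with that library (adjusted p 0.738) and by -0.36 without it. Trained APP/Tau libraries, at 11.1, 12.1 and 10.9 CPM, were below all 5 trained WT libraries, as were 2.31% of all genes, and differed by -0.60 ± 0.218 (adjusted p 0.324) and by -0.30 without it. All 12 striatal markers were below 0 in trained APP against trained WT, with a median of -0.82, and 11 of 12 in APP/Tau, with a median of -0.40. Those comparisons include WT trained replicate 4, where the striatal score was 2.39. By median over libraries the order was the other way, with scores of -0.25 in trained WT, -0.05 in trained APP and 0.21 in trained APP/Tau. The marker differences without replicate 4 were not computed. Across the 36 libraries, with group means removed, Pdyn and the striatal score had a Pearson correlation of 0.63, and 0.36 without that library, given as a description. With the striatal score as a covariate over all libraries, the Pdyn differences were 0.27 for training in WT, -0.47 for trained APP and -0.50 for trained APP/Tau mice.

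**Figure D4:**
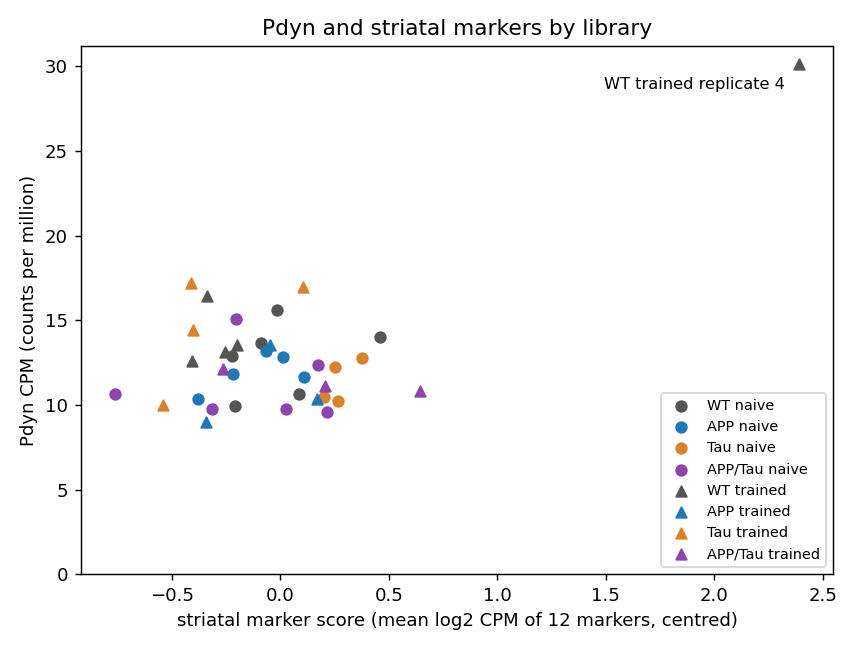
CPM of Pdyn (vertical axis, starting at 0) against the striatal marker score (horizontal axis, mean centred log2 CPM of 12 markers) in the 36 libraries; circles are naive and triangles trained mice. WT trained replicate 4 lies apart at 2.39 and 30.2 CPM, and the other scores reach at most 0.64.

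Nos1 makes nitric oxide, which acts through guanylate cyclase, and marks a set of interneurons that in part also hold Npy. Its largest difference after training was in APP mice, where naive libraries had 178, 143, 147, 140 and 154 CPM and trained ones 104, 94.4 and 122 CPM. All 3 trained libraries were below all 5 naive ones, as were 1.2% of all genes in this comparison. The log2 difference was -0.51 ± 0.127, with an unadjusted p of 0.000335 and an adjusted p of 0.883. Averaged over the genotypes, trained minus naive was -0.23 ± 0.0593 for Nos1 with an adjusted p of 0.436. By genotype, the means of the naive and trained groups were 125 and 119 CPM in WT, 152 and 107 in APP, 141 and 133 in Tau and 131 and 110 in APP/Tau. The difference between the APP and WT responses to training was -0.44 ± 0.163 with an adjusted p of 1.0. No gene passed in any training comparison within a genotype or averaged (0% of genes tested).

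Against WT, naive APP mice had the highest Nos1 of all groups, with a log2 difference of 0.28 ± 0.103 (adjusted p 1.0) and overlapping ranges. APP/Tau mice differed in Nos1 from APP mice by -0.22 ± 0.103 when naive (adjusted p 0.506), and from Tau mice by -0.27 ± 0.132 when trained (adjusted p 0.317), or -0.22 without the library labelled Tau trained replicate 4. Of 8 partners of nitric oxide signalling that were tested, among them the guanylate cyclase subunits Gucy1a1, Gucy1a2 and Gucy1b1, none passed in any of the comparisons. Their median in APP mice after training was -0.05. The largest Nos1 value among naive Tau mice, 167 CPM in replicate 3, belonged to the library that also had the most Npy, Sst, Vip, Cort, Crh and Pdyn of its group.

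In the other genotypes no member passed after training either. Of the 8, Cort and Pdyn had an unadjusted p under 0.05 in WT mice, where 5.85% of all genes did. Cort differed by -0.42 ± 0.206 there (adjusted p 0.845), and by -0.28 without WT trained replicate 4. None did in Tau mice, where 14.6% of genes did, or in APP/Tau mice, where 3.07% did. In Tau mice, Npy1r and Npy5r differed by 0.35 and 0.39 on the log2 scale after training, with adjusted p-values of 0.0957 and 0.0943. In that comparison all 15 choroid plexus markers were below 0, with a median of -3.02, and all 10 dentate granule cell markers above 0, with a median of 0.45, and their part in these values was not tested.

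Vip and Cck varied least between groups. Vip, which marks interneurons that inhibit other interneurons, had no unadjusted p under 0.05 in any of the 22 comparisons, and its group means ran from 15.9 to 18.8 CPM. For APP/Tau against WT in naive mice its log2 difference had a 95% interval of -0.27 to 0.24. Cck group means ran from 175 to 221 CPM. Its trained APP libraries had 214, 285 and 165 CPM and its trained APP/Tau libraries 192, 193 and 139 CPM, which overlapped at a log2 difference of -0.34 ± 0.14 (adjusted p 0.671). Sst in the same comparison differed by -0.35 ± 0.151 (adjusted p 0.673). Without APP trained replicate 2 the differences were -0.12 for Cck and -0.19 for Sst. Cck gave -0.20 without APP/Tau trained replicate 3 and -0.51 without APP trained replicate 3. Tau carriers averaged differed from non-carriers by -0.15 ± 0.0592 for Cck (adjusted p 0.228), by -0.10 without APP trained replicate 2, and by -0.15 without the library labelled Tau trained replicate 4.

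The levels of several members moved together from library to library within groups. After subtraction of group means from log2 CPM, the 28 pairs of members were compared over 36 libraries, with p-values from permutation of libraries within groups and adjusted over the pairs. Of these, 6 pairs passed, all positive, and the same pairs passed with Spearman's rho. Sst and Vip had the highest Pearson r of 0.72 (rho 0.77, permutation p 1e-05, the smallest that 100000 resamples can give, adjusted 0.00028), and 0.65 without the 2 libraries farthest from the median of Sst. Sst and Cck had an r of 0.66 (rho 0.62, permutation p 0.00064, adjusted 0.00448) and 0.69 without those libraries. Npy correlated with Sst at 0.63 (rho 0.61, permutation p 0.00021, adjusted 0.00196), with Pdyn at 0.63 (rho 0.65, permutation p 8e-05, adjusted 0.00112), with Vip at 0.59 (rho 0.54, permutation p 0.00181, adjusted 0.0101) and with Cck at 0.51 (rho 0.54, permutation p 0.00395, adjusted 0.0184). Without the 2 libraries farthest from the median of Npy, these were 0.65, 0.53, 0.55 and 0.70.

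**Figure D5:**
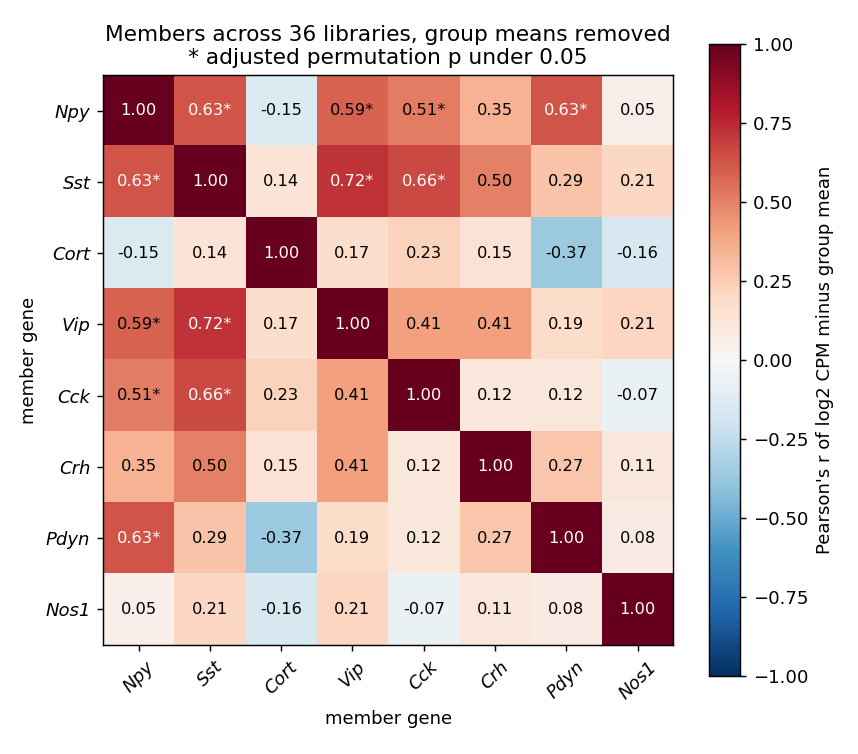
Pearson's r between members (both axes) over 36 libraries, from log2 CPM with group means removed; an asterisk marks an adjusted permutation p under 0.05. Npy, Sst, Vip and Cck share positive values, with the highest, 0.72, for Sst and Vip, and the lowest, -0.37, for Cort and Pdyn.

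Choroid plexus content divided the libraries, so the test was run again in the 19 libraries with a score above 0 and the 17 at or below it. Group means were subtracted anew in each set, which sets the value of a group's only library there to 0. Trained APP and trained APP/Tau each had only their lowest library, at scores of -2.35 and -1.68, in the second set. The 17 thus overstate the libraries that bear on its correlations. Sst and Vip had 0.73 and 0.43, Npy and Sst 0.68 and 0.53, and Sst and Cck 0.68 and 0.59. Npy had 0.63 and 0.23 with Vip, 0.36 and 0.66 with Cck, and 0.86 and 0.74 with Pdyn. All 6 pairs were positive on both sides, with Npy and Vip the weakest in the second set, while 3 and 0 of the 28 pairs passed in these smaller sets. Over all 36 libraries, Cort had r from -0.37 with Pdyn to 0.23 with Cck, and Nos1 from -0.16 with Cort to 0.21 with Vip. The score of the 27 interneuron identity genes had an r of 0.41 with Sst, 0.43 with Vip, 0.27 with Npy and 0.01 with Cck. Without WT trained replicate 4 these were 0.40, 0.38, 0.14 and 0.13. CA1 pyramidal markers had an r of 0.64 with Cck, 0.47 with Vip and 0.39 with Sst. Thalamic and habenular markers had an r of -0.51 with Sst and -0.44 with Cck. These values are descriptions. Genes measured in the same library share its depth and tissue content, and both differed between libraries.

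Genes with the most similar pattern over the 36 libraries, group means removed, were taken from 14225 genes of mean log2 CPM of at least 0. For Sst they were Gdap1l1 (r = 0.88), Lhx6 (0.84), a transcription factor of medial-ganglionic-eminence interneurons, and Vamp2 (0.82), a synaptic vesicle protein. Lhx6 was also second for Vip (0.76), after Pde2a (0.79) and before Arpp21 (0.75). For Npy they were Septin5 (0.83), Dmtn (0.78) and Rab1b (0.78). Those of Cck were Mlf2 (0.87), Kcnmb4 (0.87) and Arf5 (0.86), and those of Pdyn were Gng7 (0.76), Dclk3 (0.73) and Stk32c (0.72). Cort was most like Ebna1bp2 (0.73), Bex2 (0.71) and Nudt10 (0.69), and Nos1 most like Hrk (0.76), Srgap3 (0.70) and Kdm2b (0.69).

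None of the 27 genes that mark interneurons as such passed in any comparison. Pvalb, which is among them, was uneven between libraries. It was at 2.59 CPM in WT naive replicate 3, 3.28 and 2.60 in APP/Tau naive replicates 1 and 6, and 3.15 in APP/Tau trained replicate 1. The library labelled Tau trained replicate 4 had 2.76 CPM, and all others had 10.7 to 20.7 CPM. In naive APP/Tau against WT mice the median of the 27 genes was -0.04, with 18 of 27 below 0. In the same comparison none of 15 other neuropeptide precursors that were tested (of 17 listed, among them Penk, Tac1 and Cartpt) passed, with a median of -0.28 and 14 of 15 below 0, and none of 6 peptide-processing enzymes passed, with a median of -0.13. The CREB-linked activity genes, 14 such as Fos, Arc and Bdnf, had a median of 0.10 there and -0.33 in naive Tau mice, and none passed. Disease-associated microglia markers had a median of 0.84 in naive APP/Tau mice, with 12 of 12 above 0 and none past the threshold, and a summed level of 118 to 334 CPM beside 117 to 161 CPM in naive WT. Dentate granule cell markers had a median of -0.21, and their part in the Npy difference was not tested. Choroid plexus markers had a median of 0.67, beside the Npy value with that score as a covariate given above.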

How the data were processed

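Bulk RNA-seq of the hippocampal input fraction was measured in 36 libraries. The authors deposited 1 table of read counts per gene symbol. Per the labels' protocols, libraries were poly(A)-selected and sequenced paired-end, and the submitters' processing notes name Trimmomatic 0.39 and the mm39 build. For aligner, annotation and strand handling, the sources used here give nothing. Totals per library were 69150326 to 124787108 counts, no 2 libraries of a group were identical, and 54.7% of counts from 1 to 10 were even.

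From these counts, 1 model over all 8 groups was fitted with edgeR 4.0.16 in R 4.3.3 (TMM scaling, filterByExpr by group with a minimum count of 10 and a minimum total of 15, robust quasi-likelihood), and 22 comparisons were tested with Benjamini-Hochberg adjustment over 25382 genes and a threshold of 0.05. CPM are on TMM-scaled libraries, and log2 CPM use a prior count of 2. Correlations used 100000 two-sided permutations of libraries within groups. The tests were checked on simulated data. Alternatives were RLE size factors, no filter, a replicate block, library number, choroid or striatal scores as covariates, legacy dispersions, only the groups compared, DESeq2 1.42.0, limma 3.58.1 (voom) and leaving out each library. Leaving out both libraries that stand apart, the legacy dispersions and the choroid split of correlations were chosen after seeing the data. Members and gene lists were chosen with earlier results of these data known. Tests are given for each member with an unadjusted p under 0.05. From the lists, genes past the threshold are named, otherwise at most the 3 with the smallest p, and for each member the 3 genes most like it (for Crh these are not reported here). Exon lengths, over all exons of a gene with overlaps merged, came from GENCODE vM21, and promoters came from RefSeq.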

Additional observations from a re-analysis of the deposited data

Results flagged for a closer look

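In 5 of 48 groups of 4 to 6 libraries, a member had 1 library far from the rest of its group by Dixon's test, where chance at 1 in 20 gives 2.4. In WT trained replicate 4, Pdyn was highest at 30.2 CPM (next 16.4) and Cck lowest at 165 CPM (next 196). In Tau naive replicate 3, Vip was highest at 22.6 CPM (next 14.7) and Nos1 highest at 167 CPM (next 135). In APP/Tau naive replicate 4, Crh was highest at 2.19 CPM (next 1.71). Of 40 tests of whether a member's difference changed with the other genotype or with training, 0 passed after adjustment in edgeR and 4 had an unadjusted p under 0.05.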

How the results depend on the processing

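No direction reversed among the 42 named changes under the alternatives that could be fitted, and 18 of the 22 comparisons kept a similar count of members past the threshold throughout. For APP/Tau against WT in naive mice, the count of 1 became 0 with no filter on low counts (Npy adjusted p 0.0525), the replicate block (0.0557), library number as a covariate (0.0735), only the groups compared (0.205) and limma-voom (0.0653), and ranged from 0 to 1 when 1 library was left out. Without APP/Tau naive replicate 4 the member that passed was Cort. The count of 0 became 1 for Tau against WT in trained mice (Crh, DESeq2 and limma-voom) and 1 for APP carriers (Npy, DESeq2). For Tau carriers it ranged from 0 to 2 over the libraries left out, with 2 (Sst, Crh) without Tau naive replicate 3. The correlated pairs numbered 3 and 0 in libraries with a choroid score above 0 and at or below 0. The cause of these changes was not tested. Fits that left out a library, fits to only the groups compared and the choroid sets also held fewer libraries. Replicate numbers did not pair the libraries: 106 pairs with the same number had a median correlation of -0.04, and 29 were over 0.1. The 456 other pairs had a median of 0.01, and 132 were over 0.1. The replicate block changed the count of members past the threshold in no other comparison. The fit to only the groups compared was not run for the 3 averaged comparisons, which use all groups. The named calls of Crhr1, Crhbp and Npy1r were lost in 8 of 9, 14 of 36 and 7 of 7 fits that left out a library. Crhbp was also lost with the replicate block (adjusted p 0.0556) and with no filter (0.0605), Crhr1 with the striatal covariate (0.0813) and only the groups compared (0.0713), and Npy1r with no filter (0.0729), library number (0.072), the choroid (0.119) and striatal (0.101) covariates and only the groups compared (0.0519).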
